A study of Mus musculus with 8 samples.

Results

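The hormones and granins of enteroendocrine cells were followed in mouse colon epithelium as 10 genes: Sct, Pyy, Gcg, Cck, Insl5, Nts, Tph1, Chga, Chgb and Scg2. A gene belonged to the set when its symbol was on this list, and its row of highest mean was used. Each of the 10 was named by 1 row, all 10 passed the filter on low values, and they are 10 of 19505 genes named on the array. RNA was measured on 8 Affymetrix arrays, 1 per sample, 2 in each of 4 groups. The groups were untreated wild-type (WT) mice, WT mice given 3.5% dextran sulfate sodium (DSS) for 2 days, untreated SMS2 knockout (KO) mice, and SMS2 KO mice given DSS in the same way. All were on the C57BL/6J background, and DSS, a polymer that injures the colon lining, was given in the drinking water. SMS2 (gene symbol Sgms2) makes sphingomyelin from ceramide. The age and sex of the mice, the part of the gene that was deleted and the number of mice behind each sample are given by none of the labels. The samples of a group are labelled biological replicates.

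Enteroendocrine cells are scattered hormone-secreting cells of the gut lining that sense the lumen and release peptides or serotonin from dense-core granules. Colonic L cells make proglucagon (Gcg), peptide YY (Pyy) and, in the distal colon, insulin-like peptide 5 (Insl5), while enterochromaffin cells make serotonin through tryptophan hydroxylase (Tph1). Secretin (Sct), cholecystokinin (Cck) and neurotensin (Nts) are best known from the small intestine. Chromogranin A (Chga), chromogranin B (Chgb) and secretogranin II (Scg2) are acidic proteins that load the granules, and neurons use the same proteins.

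Values are signals on the log2 scale as deposited. Background, 6.00 to 6.24 per array, was the 75th percentile of rows for negative controls. Sgms2 lay between 10.76 and 11.27 on the 4 WT arrays and between 6.47 and 7.35 on the 4 KO arrays, so the genotype labels held. The epithelial markers as a list of 11 genes averaged 15.73 to 16.07 per array, with no gene of the list past the threshold in any of the 7 comparisons. The Y-linked gene Eif2s3y was between 2.81 and 3.17 on the untreated arrays and between 10.19 and 11.44 on the DSS arrays. Every DSS comparison therefore also sets arrays with Y-linked transcripts against arrays without them, and the 2 cannot be told apart. The fibroblast list averaged 7.84 to 9.42 per untreated array and 10.44 to 11.37 per DSS array. Transcripts of exocrine pancreas were found on 2 arrays. The pancreas list averaged 11.15 on WT DSS replicate 1 and 7.19 on KO DSS replicate 1, against 5.90 to 6.23 on the other 6. In bulk RNA, fewer cells of a type and less RNA per cell cannot be told apart.

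**Figure D1:**
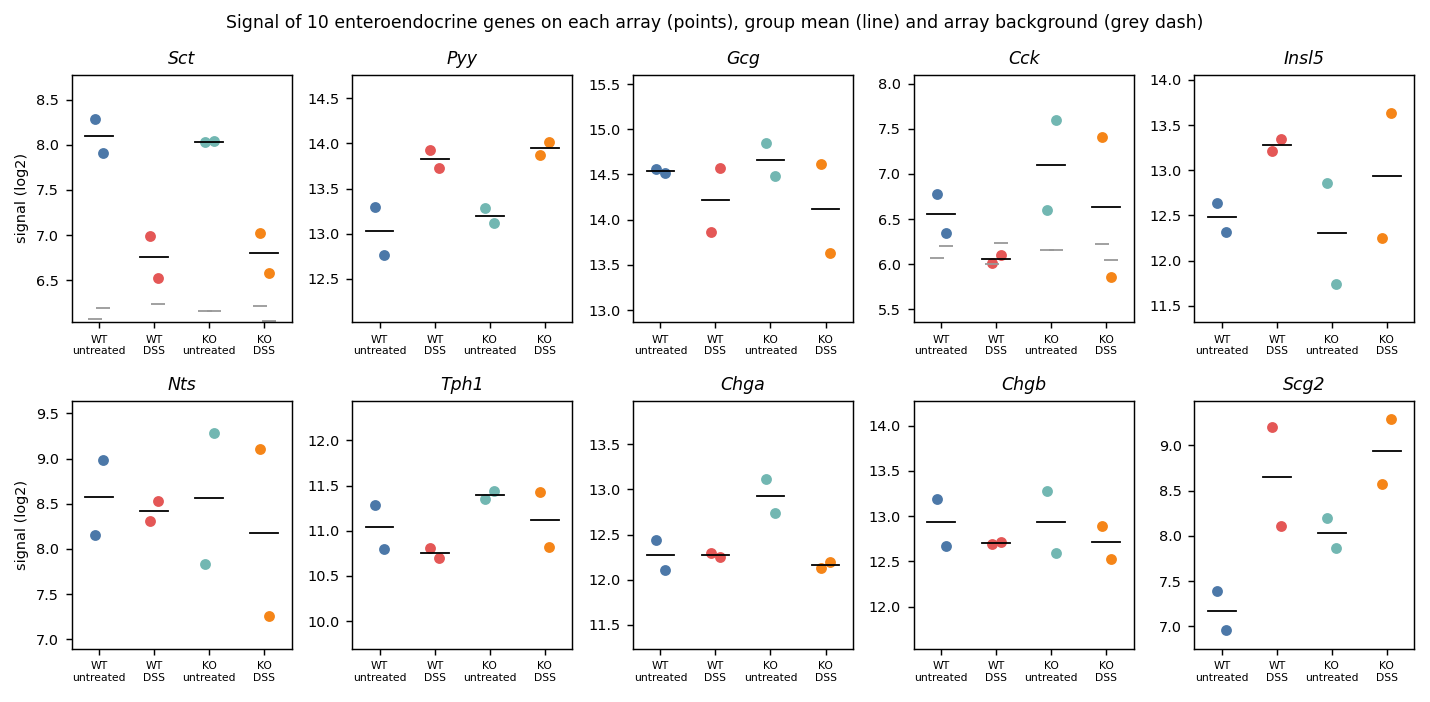
Signal of each of the 10 genes on the log2 scale (y axis, each panel spanning the same number of log2 units) in the 4 groups (x axis). Points are the 2 arrays of a group, the line is their mean, and grey dashes are the background of each array where it falls inside the panel. The 4 DSS arrays of Sct lie below, and those of Pyy above, all 4 untreated arrays.

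DSS went with less Sct and with more Scg2 and Pyy, and the other 7 genes did not pass in any DSS comparison. In WT mice, Sct fell and Scg2 rose, 2 of 10 genes, where 4.04% of 13003 tested genes passed (2.91% higher and 1.12% lower). In KO mice none of the 10 passed in the limma fit, and 4 of them (Sct, Pyy, Chga and Scg2) had an unadjusted p under 0.05. Of all genes tested, 0.931% passed in the KO (0.538% higher and 0.392% lower), and 9.52% had an unadjusted p under 0.05. Averaged over both genotypes, Sct fell and Pyy and Scg2 rose, 3 of 10 against 5.52% of all genes (3.47% higher and 2.05% lower). In numbers of genes that split was 451 higher and 267 lower, and 391 and 362 with the array medians set equal. The median difference of the 10 genes was -0.19 in WT and -0.33 in KO on the log2 scale, and the median of all genes tested was -0.05 and -0.04.

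The direction of the DSS difference was the same in both genotypes for all 10 genes, against 61.9% of all genes tested. For Chga the WT difference was close to 0, and it changed sign in 3 of 19 other settings. Under some settings the sign also changed for Gcg in WT, for Cck, Insl5 and Tph1 in KO, and for Nts and Chgb in both. Only Sct, Pyy and Scg2 kept their direction in both genotypes throughout. The 4 DSS arrays did not overlap the 4 untreated arrays for 2 of the 10 genes, Sct and Pyy, where 10.4% of all genes tested had no overlap. The difference between the DSS changes of the 2 genotypes (the interaction) passed for none of the 10 in the limma fit. Of all genes tested 0.0769% passed there. Chga alone of the 10 had an unadjusted p under 0.05, as did 5.45% of all genes.

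**Figure D2:**
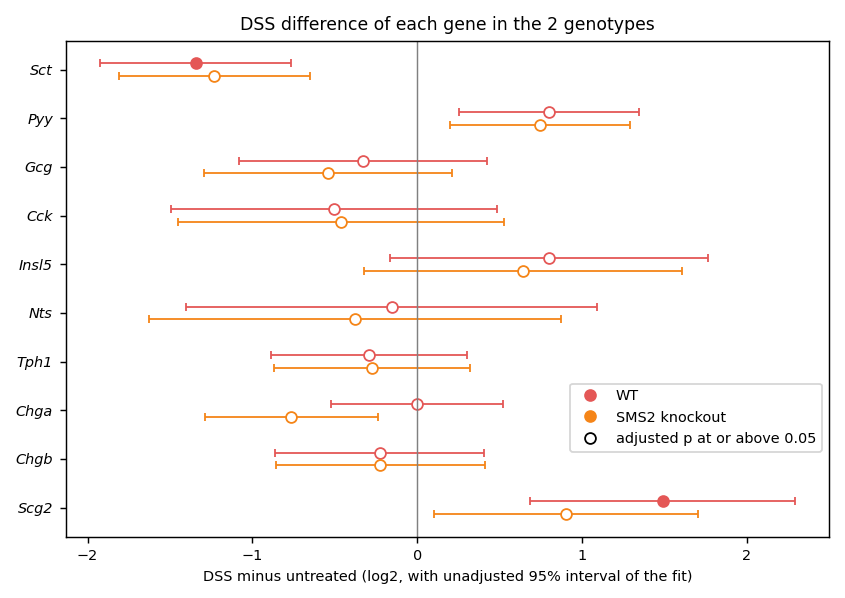
Difference between DSS and untreated arrays on the log2 scale (x axis) for each of the 10 genes (y axis), with its unadjusted 95% interval, in WT (red) and SMS2 KO (orange). Filled points passed at an adjusted p under 0.05. The points of Sct and Scg2 in WT are filled and the other 18 are open, and the intervals of the 2 genotypes overlap for every gene.

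Secretin, which drives bicarbonate secretion in the upper gut, was the gene of the set with the clearest DSS difference. Sct had signals of 8.29 and 7.91 in untreated WT, 6.99 and 6.53 in DSS-treated WT, 8.03 and 8.04 in untreated KO, and 7.02 and 6.58 in DSS-treated KO. The 4 untreated arrays were high and the 4 DSS arrays low, with no overlap, and all 8 stayed above background. In WT, Sct fell by 1.34 on the log2 scale (SE 0.26, 2.54-fold, limma adjusted p = 0.0146). In KO the difference was -1.23 (SE 0.26, 2.35-fold, limma adjusted p = 0.0579), which did not pass. Averaged over genotypes Sct fell by 1.29 (SE 0.19, limma adjusted p = 0.00166), a call it kept in all 18 other settings. The WT call was lost without WT untreated replicate 1 (-1.16, limma adjusted p = 0.166) and without WT DSS replicate 2 (-1.11, limma adjusted p = 0.114). The KO difference passed with the array medians set equal (-1.29, limma adjusted p = 0.0493) and without both arrays with pancreatic transcripts (-1.46, limma adjusted p = 0.0314).

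The 150 bases before the start of Sct are shown because this gene had the lowest p-value of the 10. The sequence is from RefSeq's GRCm38.p6 table, chr7:141279134-141279283, minus strand, 5′ to 3′, and all 10 genes of the set matched that table. Capitals mark CAGCTG (an E-box, the kind of element that basic helix-loop-helix factors such as NEUROD1 bind), GGGCGG (a GC box) and TATAAA, searched on both strands.
Sct: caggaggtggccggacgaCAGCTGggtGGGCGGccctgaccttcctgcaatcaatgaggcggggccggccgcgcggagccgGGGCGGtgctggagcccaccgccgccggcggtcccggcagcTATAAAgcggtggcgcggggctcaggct
CAGCTG begins 132 bases before the start, the GC boxes 123 and 69 bases before it, and TATAAA 28 bases before it. Of 32851 promoter windows of this length, 8.39% held CAGCTG, 28.6% held GGGCGG and 7.57% held TATAAA. The window of Chga also held CAGCTG, with TATAAA in those of Gcg and Insl5, and GGGCGG in those of Insl5, Tph1, Chga and Chgb. These matches are descriptions of the letters and not of binding.

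Among 15 tested genes of prohormone processing and granule cargo, Pcsk1 and Scgn fell and Pam rose. Pcsk1, the convertase that cuts proglucagon and other prohormones, had signals of 9.08 and 8.93 in untreated WT and 7.61 and 7.49 with DSS. In the KO its signals were 8.64 and 8.39 untreated and 8.23 and 7.62 with DSS. The 4 DSS arrays were below the 4 untreated ones, as for Sct. Pcsk1 fell by 1.45 in WT (SE 0.26, limma adjusted p = 0.00755), with a difference of -0.59 in KO (SE 0.26, limma adjusted p = 0.501), and fell by 1.02 averaged over genotypes. The interaction for Pcsk1 was 0.87 (limma adjusted p = 0.865), so the genotypes were not shown to differ. Scgn, a calcium sensor of endocrine cells, passed only in the average, where it fell by 0.85 (limma adjusted p = 0.0393). Its 4 DSS arrays, 6.41 to 6.65, lay below the 4 untreated ones, with a difference of -0.74 in WT and -0.96 in KO. Pam, which amidates peptide hormones, rose by 0.95 in WT (limma adjusted p = 0.0335) and by 0.82 averaged over genotypes, from 12.88 to 13.31 untreated to 13.82 to 13.93 with DSS. The median difference of the list was 0.21 in WT and 0.07 in KO.

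**Figure D3:**
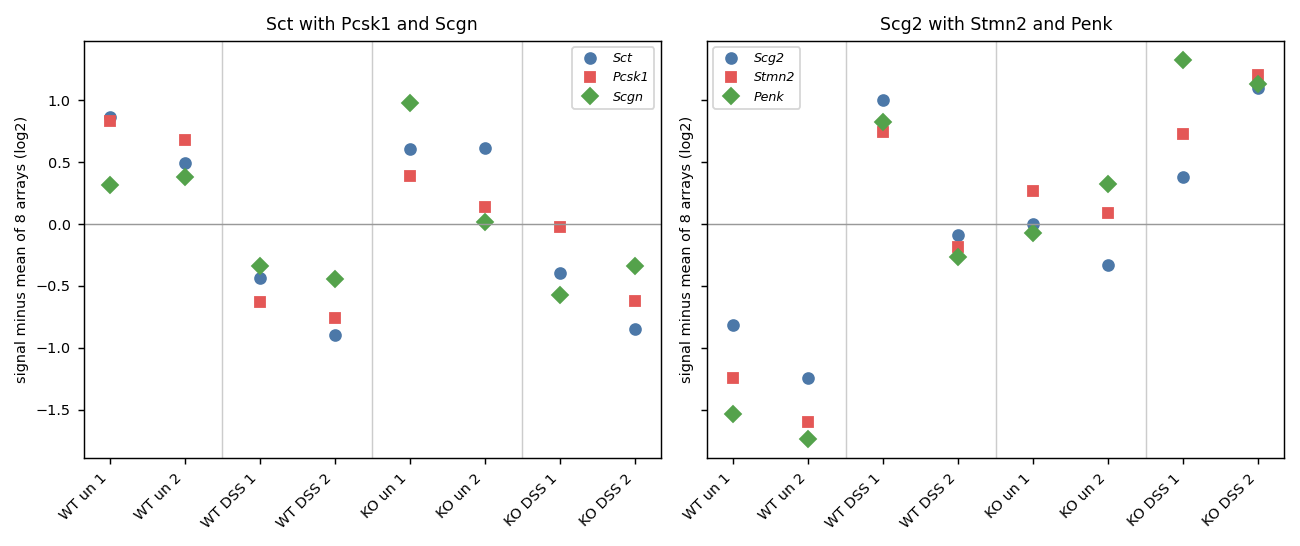
Signal of each gene minus its own mean over the 8 arrays, on the log2 scale (y axis), for each array (x axis; un is untreated). Left, Sct with Pcsk1 and Scgn, which are above 0 on all 4 untreated arrays and below it on all 4 DSS arrays. Right, Scg2 with Stmn2 and Penk, which are lowest on both untreated WT arrays.

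Some genes better known from the small intestine also fell with DSS. Of 9 tested genes of that list 4 fell in WT (Fabp6, Slc10a2, Sis and Fabp2) and 2 in KO (Slc10a2 and Sis), with medians of -0.88 and -0.36. The difference was positive for 3 of the 9 in WT, Rbp2 among them (0.79, limma adjusted p = 0.117), and for 2 in KO, Lyz1 among them (1.02, limma adjusted p = 0.266). Slc10a2, the ileal bile acid importer, was between 12.63 and 13.11 on the untreated arrays and between 10.01 and 11.14 on the DSS arrays. Of 14 genes of the list on the array, 5 lay under background on all 8 arrays, the lactase gene Lct and Gata4 among them. The list averaged 8.19 to 8.39 per untreated array and 7.76 to 7.87 per DSS array. Its part in the Sct difference was not tested.

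Peptide YY, which slows gut transit and lowers appetite, was higher with DSS in both genotypes. Pyy had signals of 13.29 and 12.76 in untreated WT, 13.93 and 13.73 in DSS-treated WT, 13.29 and 13.11 in untreated KO, and 13.87 and 14.02 in DSS-treated KO. All 4 DSS arrays were above all 4 untreated arrays. The difference was 0.80 in WT (SE 0.25, limma adjusted p = 0.117) and 0.74 in KO (SE 0.25, limma adjusted p = 0.296), neither of which passed. Averaged over genotypes Pyy rose by 0.77 (SE 0.18, 1.71-fold, limma adjusted p = 0.0254). That call was lost without WT untreated replicate 2 (limma adjusted p = 0.124), WT DSS replicate 1 (0.0655), KO untreated replicate 1 (0.0703) or KO untreated replicate 2 (0.121).

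Proglucagon, from which L cells cut the glucagon-like peptides, did not follow Pyy. Gcg had signals of 14.57 and 14.52 in untreated WT, 13.86 and 14.57 in DSS-treated WT, 14.85 and 14.48 in untreated KO, and 14.62 and 13.63 in DSS-treated KO. In each genotype 1 DSS array was low and the other lay within or near the untreated range. The DSS difference was -0.33 in WT (95% interval -1.08 to 0.42) and -0.54 in KO (95% interval -1.29 to 0.21). Neither passed (limma adjusted p = 0.739 and 0.720), and these intervals leave room for a fall of more than 1 log2 unit. The low WT array was the one with most pancreatic transcripts, and without it the WT difference of Gcg was 0.026. In KO the array with such transcripts was the high one, and without it the difference was -1.04. Without the other KO DSS array it was -0.043.

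Of 10 islet markers on the array, 8 lay under background on all 8 arrays, including the insulin gene Ins2 (3.70 to 4.49) and the amylin gene Iapp (3.81 to 4.88). The islet list averaged 4.74 to 5.04 per array. It was 5.04 on the array with most pancreatic transcripts and 4.86 on the other array with them. On WT DSS replicate 2, without such transcripts, it was 5.02. Pancreatic polypeptide (Ppy), the exception that moved, is close kin of Pyy and was also counted among the other gut hormones. Ppy was under background on both untreated WT arrays (5.52 and 5.27) and above it with DSS (8.72 and 7.18). In WT it rose at least 3.52-fold (limma adjusted p = 0.0126), taking the bright group's mean against the background of the dim group's arrays. In KO its signals were 4.76 and 6.02 untreated and 5.69 and 6.32 with DSS, a difference that did not pass (limma adjusted p = 0.786). The interaction for Ppy did not pass (-1.94, limma adjusted p = 0.727).

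Insulin-like peptide 5, an orexigenic hormone of distal colonic L cells, varied more between the arrays of a group. Insl5 had signals of 12.64 and 12.31 in untreated WT, 13.21 and 13.34 in DSS-treated WT, 12.86 and 11.74 in untreated KO, and 12.24 and 13.64 in DSS-treated KO. The WT groups did not overlap and the KO groups did. The DSS difference was 0.80 in WT (SE 0.44, limma adjusted p = 0.437) and 0.64 in KO (SE 0.44, limma adjusted p = 0.746). Averaged over genotypes it was 0.72 (SE 0.31, limma adjusted p = 0.254). It passed in that average without KO DSS replicate 1 (1.07, limma adjusted p = 0.0433) and without both arrays with pancreatic transcripts (1.10, limma adjusted p = 0.0407).

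The posterior homeobox gene Hoxb13, which marks the distal colon, was highest on the 3 arrays where Insl5 was highest. Hoxb13 had signals of 10.76 and 10.21 in untreated WT, 11.77 and 11.52 in DSS-treated WT, 10.78 and 10.13 in untreated KO, and 10.17 and 12.39 in DSS-treated KO. For both genes the KO DSS arrays were furthest apart, with replicate 1 minus replicate 2 at -1.39 for Insl5 and -2.22 for Hoxb13. Hoxd13 was 7.78 and 10.17 on the same arrays, and its WT arrays were at 9.44 and 8.98 without DSS and at 11.98 and 12.34 with it. Of 7 tested genes of the posterior list, Hoxd11 and Hoxd13 rose with DSS in WT and none passed in KO, with medians of 0.82 and 0.24. The KO difference was positive for 5 of the 7 and negative for 2, Hoxd13 among them (-0.28). With DSS, Hoxd11 (-2.21, limma adjusted p = 0.0302) and Hoxd13 (-3.19, limma adjusted p = 0.0418) were lower in KO than in WT. All 7 genes had a negative difference there, with a median of -0.42. The list averaged 7.17 and 7.30 in untreated WT, 8.34 and 8.22 in DSS-treated WT, 7.37 and 6.97 in untreated KO, and 6.97 and 7.94 in DSS-treated KO. The part of these genes in the Pyy and Insl5 values was not tested.

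**Figure D4:**
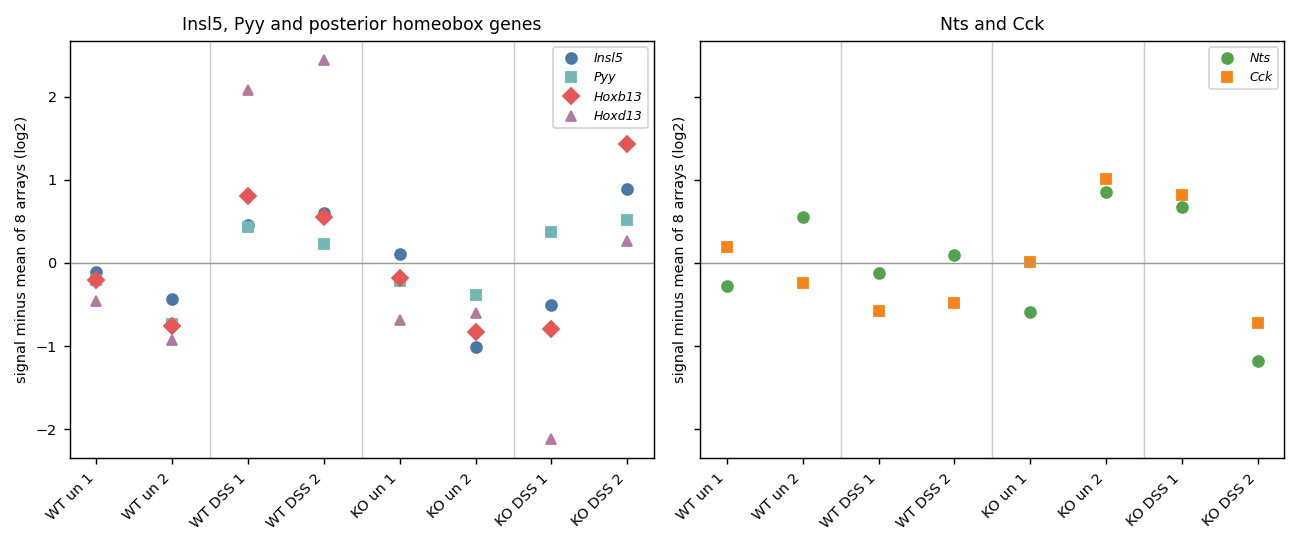
Signal of each gene minus its own mean over the 8 arrays, on the log2 scale (y axis), for each array (x axis; un is untreated). Left, Insl5, Pyy, Hoxb13 and Hoxd13; right, Nts and Cck. Between the KO DSS arrays, replicate 1 has less Insl5, Hoxb13 and Hoxd13 and more Nts and Cck than replicate 2.

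Neurotensin ran the other way between the KO arrays, as did cholecystokinin, which contracts the gallbladder. Nts had signals of 8.15 and 8.99 in untreated WT, 8.31 and 8.53 in DSS-treated WT, 7.84 and 9.28 in untreated KO, and 9.11 and 7.26 in DSS-treated KO. The highest and the lowest array were both from KO mice, and the groups overlapped in every comparison. The DSS difference was -0.15 in WT (95% interval -1.40 to 1.09) and -0.38 in KO (95% interval -1.62 to 0.87).

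Cck lay under background on 2 of 8 arrays, and its highest signals were on 1 array of each KO group. It had signals of 6.78 and 6.34 in untreated WT, 6.01 and 6.10 in DSS-treated WT, 6.60 and 7.60 in untreated KO, and 7.41 and 5.86 in DSS-treated KO. The array of low Insl5 in each KO group was the array of high Nts and Cck. In WT this held only for Nts without DSS. The WT array of lower Insl5 had the lower Cck in both groups, and the lower Nts with DSS. The DSS difference of Cck was -0.50 in WT and -0.46 in KO (SE 0.45 in each, limma adjusted p = 0.688 and 0.836), and with 2 of its arrays under background such a difference may be understated.

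Among all tested genes, the profiles most like Nts over the 8 arrays were those of Ccdc124 and Hipk2. Their root mean square difference from it was 0.30 and 0.31 log2 units after each gene was centred on its mean. Hipk2 was 10.08 and 10.77 in untreated KO and 11.03 and 9.32 in KO with DSS, so it was high on the same KO arrays as Nts.

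Tph1, the rate-limiting enzyme of serotonin synthesis outside the brain, had signals of 11.29 and 10.80 in untreated WT, 10.81 and 10.69 in DSS-treated WT, 11.35 and 11.44 in untreated KO, and 11.43 and 10.82 in DSS-treated KO. Both WT DSS arrays lay at the low end, beside 1 untreated WT array and 1 KO DSS array. The DSS difference was -0.29 in WT (95% interval -0.89 to 0.30) and -0.27 in KO (95% interval -0.87 to 0.32), and neither passed. Mast cells, which also carry Tph1, gave little signal: 9 of their 10 markers lay under background on all 8 arrays, and the exception was Kit (11.04 to 11.66).

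Of 8 tested genes of monoamine handling, the degrading enzyme gene Maoa alone passed. It lay between 15.18 and 15.39 on the untreated arrays and between 14.30 and 14.84 on the DSS arrays. Averaged over genotypes Maoa fell by 0.76 (SE 0.16, limma adjusted p = 0.0147). It did not pass in WT (-0.54) or in KO (-0.98, limma adjusted p = 0.0757). The list's median difference was 0.21 in WT and -0.19 in KO.

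The granins did not move together. Scg2 had signals of 7.38 and 6.95 in untreated WT, 9.20 and 8.11 in DSS-treated WT, 8.20 and 7.87 in untreated KO, and 8.58 and 9.29 in DSS-treated KO. The untreated WT arrays were the lowest of the 8, and in each genotype the DSS arrays lay above the untreated ones. Scg2 rose by 1.49 in WT (SE 0.37, 2.81-fold, limma adjusted p = 0.0462), with a difference of 0.90 in KO (SE 0.37, limma adjusted p = 0.436), and rose by 1.20 averaged over genotypes (SE 0.26, limma adjusted p = 0.0191). The interaction was -0.58 (SE 0.52, limma adjusted p = 0.992). The WT call was near the threshold and was lost in 8 of 19 other settings, with an adjusted p between 0.00503 and 0.281 over all of them. Without WT DSS replicate 1 the difference was 0.95, and without WT DSS replicate 2 it was 2.03. The average lost its call without WT untreated replicate 2 (limma adjusted p = 0.0859) or KO untreated replicate 2 (0.0787).

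Chga and Chgb, the granins most used as endocrine markers, did not rise with Scg2. Chga had signals of 12.44 and 12.11 in untreated WT, 12.30 and 12.25 in DSS-treated WT, 13.11 and 12.74 in untreated KO, and 12.13 and 12.20 in DSS-treated KO. Both untreated KO arrays stood above the other 6. The DSS difference of Chga was -0.0030 in WT (SE 0.24) and -0.76 in KO (SE 0.24, limma adjusted p = 0.253), and the interaction was -0.76 (SE 0.34, unadjusted p = 0.0446, limma adjusted p = 0.904).

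Chgb had signals of 13.19 and 12.67 in untreated WT, 12.69 and 12.72 in DSS-treated WT, 13.28 and 12.59 in untreated KO, and 12.89 and 12.53 in DSS-treated KO. All 4 groups overlapped. Its DSS difference was -0.23 in WT (95% interval -0.86 to 0.41) and -0.22 in KO (95% interval -0.86 to 0.41).

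The promoters of the granins are set side by side because Scg2 passed for DSS while Chgb and Chga did not. The DSS differences were not tested between genes. Each line gives the 150 bases before the start from RefSeq's GRCm38.p6 table, 5′ to 3′. They lie at chr1:79440027-79440176 on the minus strand for Scg2, chr2:132781492-132781641 on the plus strand for Chgb and chr12:102554791-102554940 on the plus strand for Chga. Capitals mark TGACGTCA, the palindromic cyclic AMP response element, and in Chga the shorter TGACGT that it contains.
Scg2: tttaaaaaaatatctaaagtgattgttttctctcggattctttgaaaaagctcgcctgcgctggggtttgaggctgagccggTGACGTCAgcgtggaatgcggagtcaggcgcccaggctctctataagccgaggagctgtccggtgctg
Chgb: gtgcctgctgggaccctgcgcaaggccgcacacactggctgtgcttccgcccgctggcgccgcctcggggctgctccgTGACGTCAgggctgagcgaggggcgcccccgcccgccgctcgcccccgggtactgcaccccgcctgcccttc
Chga: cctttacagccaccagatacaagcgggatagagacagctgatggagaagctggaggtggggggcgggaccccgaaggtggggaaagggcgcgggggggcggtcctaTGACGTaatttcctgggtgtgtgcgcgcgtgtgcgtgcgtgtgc
TGACGTCA begins 68 bases before the start in Scg2 and 72 bases before it in Chgb, and TGACGT begins 44 bases before it in Chga. Of 32851 windows of this length, 1.36% held TGACGTCA and 5.15% held TGACGT, on either strand. In the windows of the other 7 genes of the set neither was found. Scg2 and Chgb thus both hold the palindrome. The matches describe the letters and not binding, and their part in the DSS differences was not tested.

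Of 12 tested neuron markers, Stmn2 alone passed in any comparison. Stmn2, a microtubule regulator of neurons, had signals of 6.84 and 6.48 in untreated WT, 8.82 and 7.89 in DSS-treated WT, 8.35 and 8.17 in untreated KO, and 8.81 and 9.29 in DSS-treated KO. As for Scg2, the untreated WT arrays were lowest and WT DSS replicate 1 stood above replicate 2. Stmn2 rose by 1.70 in WT (limma adjusted p = 0.0106), with a difference of 0.79 in KO (limma adjusted p = 0.436). Averaged over treatments it was higher in KO than in WT by 1.15 (limma adjusted p = 0.0465). Penk, the enkephalin precursor of enteric neurons, rose by 1.92 in WT (limma adjusted p = 0.00646) and was higher in KO than in WT averaged over treatments, by 1.36 (limma adjusted p = 0.0239). Penk was not on the neuron list but on that of the other gut hormones. Of 9 tested genes of the hormone list 2 passed in WT, Penk and Ppy, with a median of 0.56, where 4.04% of all genes passed. None of the 9 passed in KO, with a median of 0.37. Of the 12 tested neuron markers 10 had a positive DSS difference in WT and 7 in KO, where Elavl4 (-0.49) and Gap43 (-0.21) were among the negative ones. Of 15 on the array 4 lay under background on all arrays, among them the cholinergic genes Chat and Slc18a3. The list averaged 5.42 to 5.88 per untreated array and 5.60 to 6.31 per DSS array, with medians of 0.18 for DSS in WT and 0.16 in KO. The part of neurons in the Scg2 values was not tested.

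The profiles most like Scg2 over the 8 arrays were those of Elk3 and Tmem154, with root mean square differences of 0.30 and 0.31 log2 units. Elk3 was 4.89 and 4.48 in untreated WT and 6.28 and 6.25 in WT given DSS. In untreated KO it was 5.90 and 5.24, so it was under background on all 4 untreated arrays. Tmem154 was above background on WT DSS replicate 1 alone (6.22), so little can be read from these likenesses.

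The regulators, sensors and receptors around these hormones showed few differences that passed. None of 15 tested transcription factors of the enteroendocrine lineage passed in any of the 7 comparisons by limma, and 7 of them had an unadjusted p under 0.05 in at least 1. Of all genes tested, 31.8% had such a p in at least 1 of these comparisons. Their median DSS difference was 0.01 in WT and 0.03 in KO. The 2 of smallest p were Rfx3, a transcription factor of ciliated and islet cells, and Neurog3, the factor that starts the lineage. Rfx3 was 6.45 and 6.63 in untreated WT and 5.66 and 5.85 with DSS (limma adjusted p = 0.111), where both DSS arrays were under background, and Neurog3 lay under background on all 8 arrays.

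Of 7 tested sensors of nutrients and irritants 1 passed, the mechanically gated channel gene Piezo2, in the DSS average. Its signals, 4.69 to 6.08, were under background on 7 of 8 arrays, so no difference is read from that call. Of the 7 sensors, 5 had an unadjusted p under 0.05 in at least 1 comparison, where 31.8% of all genes tested did. None of 9 tested receptors of the hormones passed by limma, and 3 had an unadjusted p under 0.05 in some comparison, to be read against the same share of all genes. Npy1r, a receptor of peptide YY, was 7.71 and 7.83 in untreated WT, 8.34 and 8.61 in DSS-treated WT, 8.32 and 8.26 in untreated KO, and 6.07 and 8.13 in DSS-treated KO. A single low array, KO DSS replicate 1, set it apart. Npy2r, another such receptor, lay under background on all 8 arrays.

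Loss of SMS2 went with no difference in the 10 genes that passed. Without DSS none of the 10 differed between KO and WT by limma, 2 (Chga and Scg2) had an unadjusted p under 0.05, and 0.392% of all genes tested passed. The share of all genes with an unadjusted p under 0.05 was 6.32%. With DSS none passed and none had an unadjusted p under 0.05, where 0.354% of all genes tested passed and 10.2% had such a p. Averaged over treatments none passed, 1 (Scg2) had an unadjusted p under 0.05, and 0.677% of all genes tested passed, with 11% at such a p. The median difference of the 10 genes was 0.15 without DSS and 0.03 with DSS.

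The largest genotype differences without DSS were in granins. Scg2 was higher in untreated KO by 0.86 (SE 0.37, limma adjusted p = 0.707) and Chga by 0.65 (SE 0.24, limma adjusted p = 0.504). With DSS the difference was 0.28 for Scg2 and -0.11 for Chga. With DSS the KO minus WT difference of Sct was 0.05 (95% interval -0.53 to 0.62) and that of Pyy was 0.12 (95% interval -0.43 to 0.66). Several lists of other tissues were also higher on the untreated KO arrays than on the untreated WT arrays. Of 12 fibroblast genes 3 passed and all 12 had a positive difference, with a median of 1.37; their mean was 9.42 and 9.15 in KO and 7.84 and 8.18 in WT. The endothelial list had 1 of 10 past the threshold and a median of 0.78. Smooth muscle had list means of 12.24 and 12.46 against 10.05 and 10.98, with 0 of 10 past the limma threshold, 10 at an unadjusted p under 0.05 and a median of 1.89. The neuron list had means of 5.88 and 5.82 against 5.47 and 5.42, with 0 of 12 past the limma threshold, 5 at an unadjusted p under 0.05 and a median of 0.57. The part of these tissues in the Chga and Scg2 values was not tested.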

How the data were processed

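The authors made the deposited log2 values with Affymetrix Expression Console, per the submitters' processing notes. The sources used here do not give their normalization or background correction. Values were used as deposited. Of 28846 rows, 6640 control rows were left out; 19572 rows that the platform table names with a single symbol gave 19505 genes. The lowest 33.3% of genes by mean (below 5.15) were left out, and 13003 were tested. limma 3.58.1 (R 4.3.3) was run on the 8 arrays together with 1 mean per group, giving 4 residual and 7.27 prior degrees of freedom. Tests were two-sided, and adjusted p-values (Benjamini-Hochberg, across the whole tested set) passed under 0.05. The pipeline was tested on simulated data. Such p-values reflect only how far these samples spread, and the number of arrays limits the precision. The files name no build, and coordinates are those of the RefSeq sequence table.

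The 10 genes and the gene lists were chosen with earlier results of these data known. Named besides the 10 genes were genes of the hormone lists past the threshold (otherwise the 2 of smallest p), markers past the threshold or among the 3 brightest of their list, and for genes of the set spanning at least 2 log2 units the 2 closest profiles. Markers at background (Ins2, Iapp, Lct, Gata4, Chat, Slc18a3) or of opposite sign (Rbp2, Lyz1, Elavl4, Gap43) were named after their values were seen. "At least" folds set the bright group's mean against the higher of background and signal on the dim group's arrays. Replicate numbers are not stated to pair samples. Alternatives covered filters, rows, scaling, variance model, array weights, a replicate block and arrays left out.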

Additional observations from a re-analysis of the deposited data

How the results depend on the processing

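Over the single-gene DSS results, and those of Chga and Scg2 for the KO without DSS and the interaction, 597 of the values under other settings kept their direction and side of the threshold, 16 lost a call, 4 gained one and 17 changed sign; no called value changed sign. Of the 10 genes, 2 passed for DSS in WT. That count was 1 without a filter on low values, with array medians set equal and without both arrays with pancreatic transcripts, and 0 to 2 with single arrays left out. For DSS in KO it was 0 in the main fit, and 1 (Sct) with array medians set equal. For DSS averaged it was 3, and 1 to 4 with single arrays left out. For the KO averaged over treatments it was 0, and 1 (Scg2) without both pancreatic arrays, a fit with 1 array in each DSS group. Replicate deviations of same-numbered arrays correlated between -0.25 and 0.28 over 6 pairs of groups, which does not settle whether the numbers pair the samples. With the replicate block 2 genes passed for DSS in WT, 0 in KO and 3 averaged, so it changed no call of the 10. With the numbers of the KO DSS arrays crossed, chosen after seeing the data, 683 genes passed for DSS in WT, 159 in KO and 937 averaged, and 2, 0 and 3 of the 10.

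Each difference that changed sign had not passed in its own comparison. With quantile normalization the WT DSS difference of Chga was 0.030, and without both pancreatic arrays that of Gcg was 0.026 and the Scg2 interaction 0.32. With single arrays left out, the WT DSS differences ran from -0.68 to 0.026 for Gcg, -0.57 to 0.26 for Nts, -0.17 to 0.17 for Chga and -0.49 to 0.031 for Chgb. Those in KO ran from -1.24 to 0.31 for Cck, -0.055 to 1.34 for Insl5, -1.30 to 0.55 for Nts, -0.58 to 0.031 for Tph1 and -0.57 to 0.12 for Chgb, and the average for Nts from -0.73 to 0.20. The cause was not tested.

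The count over all genes tested was 525 for DSS in WT, 121 in KO and 718 averaged. With single arrays left out it ran from 215 to 716, 18 to 297 and 396 to 1054, and without both pancreatic arrays it was 988 in WT. In KO it was 74 after quantile normalization and 14 on the arrays of the 2 groups alone. For the KO without DSS it was 51, from 3 to 132 with single arrays left out, 241 with array weights, 28 after quantile normalization, and 252 both on 4 arrays alone and without the pancreatic arrays. With DSS it was 46, from 24 to 215, 21 with array weights and 70 with trend and robust moderation. For the KO averaged it was 88, from 28 to 362, and 185 without the pancreatic arrays; for the interaction it was 10, from 5 to 26, and 36 without them.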
